A study of Homo sapiens with 12 samples.

Results

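The liver X receptors and 6 genes known as their targets were followed through every library: the receptor genes NR1H2 (LXRβ) and NR1H3 (LXRα), the sterol efflux transporters ABCA1 and ABCG1, and MYLIP, LPCAT3, APOE and SMPDL3A. These 8 genes, of 56364 gene symbols in all, were listed in each of the 3 deposited tables, which share 15852 symbols. They were selected by name, and with measured values of these libraries already known, among them the ratios of ABCA1 and ABCG1 to vehicle. Their levels and ratios are therefore given as a description, with no test.

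RNA-seq was performed on 2 cell lines of triple-negative breast cancer (TNBC), a tumor type that lacks estrogen receptor, progesterone receptor and HER2, with 1 library per condition after 24 h of treatment. The 5 HCC70 libraries came from cells given vehicle, 1 of 2 doses of XY018 (1.25 and 2.5 μM), 1.25 μM atorvastatin (ATV), or the lower dose of XY018 combined with ATV. The same set was made from MDA-MB468, where the label of the combination gives no ATV dose and the protocol gives 1.25 μM, and a second experiment in that line compared its own vehicle with 2.5 μM GSK805. XY018 and GSK805 are antagonists of the nuclear receptor RORγ, and ATV is a statin, an inhibitor of cholesterol synthesis. Both lines were grown in medium with serum, to which the labels, but not the study's methods, add insulin for MDA-MB468, and all cells were between passages 6 and 9. Each line stands for 1 tumor, and no condition has a replicate, so no difference between libraries could be checked against replicates or given a p-value.

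LXRα and LXRβ are nuclear receptors that bind oxysterols, the oxidised products of cholesterol, and act on DNA as heterodimers with retinoid X receptors (RXR). On their targets they exchange corepressors for coactivators when a ligand is bound. The targets lower free cholesterol in the cell: ABCA1 and ABCG1 pass it to apolipoprotein A-I and to high-density lipoprotein, MYLIP sends lipoprotein receptors to degradation, and SREBF1 drives fatty acid synthesis. In macrophages and liver this is the counterpart of the SREBP2 pathway, which makes and imports cholesterol.

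Values are FPKM, the fragments of a gene relative to its transcript length and to all mapped fragments, so levels of different genes are compared per length. Depth was estimated from the spacing of low values at 9020000 to 9900000 fragments per HCC70 library, 18080000 to 19860000 in the first MDA-MB468 experiment, and 8370000 and 8680000 in the GSK805 experiment. The 3 tables were normalized separately, and the 2 MDA-MB468 vehicles differed by a median log2 ratio of 0.56 over 11952 genes, so levels are compared across tables only loosely. The marker genes fitted the labelled lines in part. ESR1 was between 0.37 and 0.67 FPKM in the HCC70 and XY018 tables but 1.77 and 5.67 FPKM in the GSK805 table, PGR was listed at 0 in MDA-MB468 and not listed for HCC70, and ERBB2 was between 25.3 and 57.7 FPKM, so ERBB2 transcript was not low. The basal and epithelial markers EGFR, KRT5, KRT17 and EPCAM were at 40.2 FPKM or above in every library, and KRT14 was between 0.45 and 10.6 FPKM.

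ABCA1, on chromosome 9 at 107543287 to 107690436 of GRCh37 on the minus strand, reached the highest level of the transporters and was the one member whose promoter window held an LXR-type element. RefSeq promoter windows, from 250 bases before to 50 bases after a gene start, were available for 6 of the 8 genes in 11 windows of GRCh38.p14. ABCG1 and SMPDL3A had none. The classical element is DR4, a pair of half-sites of the form NGGTNA with 4 bases between them. Searched on both strands, it was found in 1 of the 11 windows and in 0.624% of the 35116 windows of the table. The stretch of 250 bases before the ABCA1 start (GRCh38.p14, chr9:104928156-104928405, minus strand, from RefSeq) is shown because it carries this match, in capitals. The match lies on the strand opposite to the gene, from 69 to 54 bases before the start.

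ABCA1: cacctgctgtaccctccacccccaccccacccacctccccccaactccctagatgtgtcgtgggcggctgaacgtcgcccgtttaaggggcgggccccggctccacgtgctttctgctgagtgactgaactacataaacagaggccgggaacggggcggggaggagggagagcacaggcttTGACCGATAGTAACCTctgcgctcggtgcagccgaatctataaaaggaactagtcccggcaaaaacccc

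Read on its own strand the element is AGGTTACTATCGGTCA. The single half-site AGGTCA, which many nuclear receptors can bind, occurred in 1 of the 11 windows, that of NR1H3, from 140 to 135 bases before its start, and in 13.8% of all windows. It overlapped no DR4. The ROR response element consensus occurred in 0 of the 11 windows and in 0.316% of all. A match describes these letters and says nothing of binding.

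The receptor genes themselves stayed within 1.5-fold of the vehicle of their own table in all 9 treated libraries. NR1H2, which encodes the broadly expressed LXRβ (chromosome 19, 50832910 to 50886645), was at 45.9 FPKM in vehicle-treated HCC70 cells, 42.7 with XY018 at 1.25 μM, 46.9 at 2.5 μM, 56.1 with ATV and 59 with both compounds. In MDA-MB468 it was at 41.8 FPKM in vehicle, 56.9 and 62.4 with the 2 doses of XY018, 46.5 with ATV and 56.1 with both, and at 55.8 and 54.1 FPKM in the vehicle and GSK805 libraries. The largest of these log2 ratios, 0.58 for MDA-MB468 and the higher dose of XY018, lay just under the threshold of 1.5-fold. All log2 ratios compare treated with vehicle FPKM after 0.1 was added to both.

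NR1H3, which encodes LXRα (chromosome 11, 47269851 to 47290584), was lower than NR1H2 in every library. It was at 7.23 FPKM in HCC70 vehicle, 8.19 and 6.9 with the doses of XY018, 8.95 with ATV and 9.63 with both. In MDA-MB468 it was at 18.4 FPKM in vehicle, 17.3 and 17.5 with XY018, 18.4 with ATV and 16.1 with both, and at 35.2 and 40.6 FPKM in the GSK805 experiment. The ratio of NR1H2 to NR1H3 was therefore 5.22 to 6.8 in HCC70, 2.27 to 3.56 in the XY018 experiment of MDA-MB468, and 1.58 and 1.33 in the GSK805 experiment. The partner genes RXRA and RXRB behaved alike in that neither passed 1.5-fold in any comparison. RXRA was between 15.7 and 24.7 FPKM in HCC70, and the largest log2 ratio of either gene was 0.51, for RXRB with XY018 at 2.5 μM in MDA-MB468 (30.9 to 44.1 FPKM). Of the 10 corepressor and coactivator genes listed (NCOR1 and the p160 coactivators among them), 0 passed 1.5-fold in 8 comparisons. In those 8, between 0.803% and 17.6% of all genes were called in a given direction. In MDA-MB468 with both compounds, 2 of the 10 were higher, against 13.1% of all genes. Of these 2, NCOA3 went from 17.6 to 27.2 FPKM, a log2 ratio of 0.63.

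**Figure D1:**
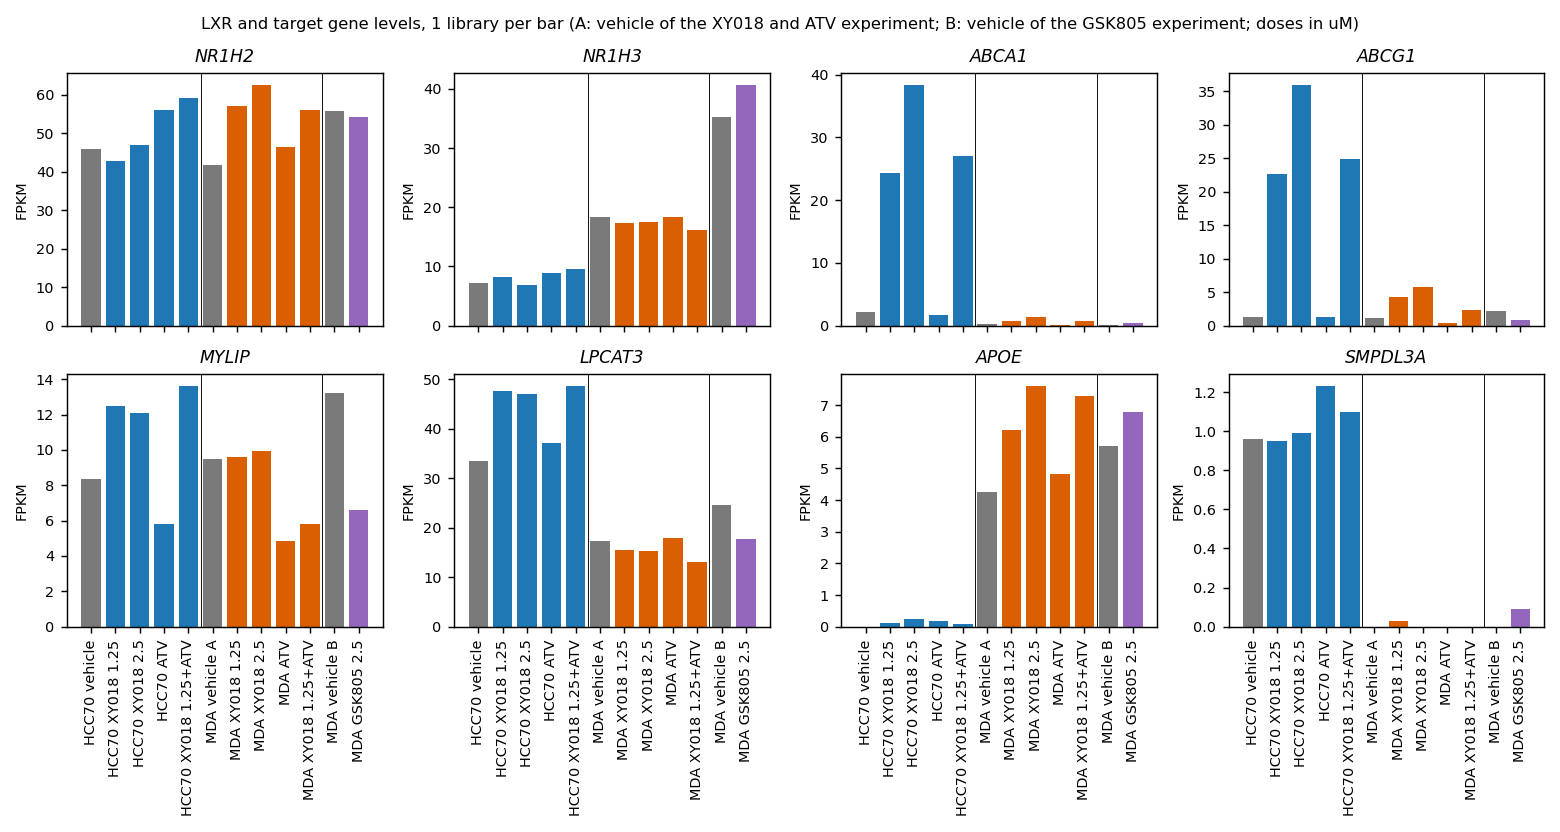
FPKM of the 8 genes in the 12 libraries, 1 bar per library, with HCC70 in blue, MDA-MB468 with XY018 or ATV in orange, GSK805 in purple and vehicles in grey; vertical lines separate the tables, which were normalized separately. ABCA1 and ABCG1 stood at 22.6 to 38.3 FPKM in the 3 HCC70 libraries with XY018 and at or under 2.22 FPKM in the HCC70 libraries without it, while NR1H2 and NR1H3 kept to a narrower range in each table.

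ABCA1 and ABCG1 rose together wherever XY018 was given to HCC70. ABCA1, the transporter that loads cholesterol and phospholipid onto lipid-poor apolipoprotein A-I, was at 2.22 FPKM in vehicle, 24.3 with XY018 at 1.25 μM, 38.3 at 2.5 μM, 1.65 with ATV and 27 with both compounds. These values rest on about 221, 2281, 3877, 170 and 2737 estimated fragments. The 3 libraries with XY018, which are different treatments and not replicates, stood above those with vehicle or ATV alone. ABCA1 was selected with its ratios known, and the share of all genes that split in this way was not counted. The log2 ratios to vehicle were 3.39, 4.05 and 3.55 in the libraries with XY018 and -0.41 with ATV.

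ABCG1, which exports cholesterol to high-density lipoprotein particles (chromosome 21, 43619799 to 43717354), followed the same order in HCC70. It was at 1.34 FPKM in vehicle, 22.6 and 35.9 with the doses of XY018, 1.26 with ATV and 24.9 with both compounds. The log2 ratios were 3.98, 4.65, -0.08 and 4.12. At the higher dose ABCG1 had rank 1 and ABCA1 rank 3 by log2 ratio among the 11721 genes tested. Among the 8404 genes at 5 FPKM or above in that treated library they were the 2 with the largest ratios. ANGPTL4, an inhibitor of lipoprotein lipase, came next, from 4.38 to 40.8 FPKM (log2 ratio 3.19). The neuropeptide gene CALCB (1.96) and the growth factor gene HBEGF, which went from 10.2 to 33.4 FPKM, followed. Of these, ABCG1, ABCA1, ANGPTL4 and CALCB were under 5 FPKM in vehicle and passed through the treated library alone. ABCA1 and ABCG1 were selected with their ratios known, so their ranks are a description only.

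Counting error was small against these ratios in HCC70. The 95% Clopper-Pearson interval of the log2 ratio, computed from estimated fragments with nothing added, was 3.91 to 4.31 for ABCA1 and 4.28 to 5.26 for ABCG1 with XY018 at 2.5 μM. With ATV it was -0.73 to -0.14 for ABCA1 and -0.78 to 0.60 for ABCG1. These intervals cover counting error only, and leave out the variation between cultures and library preparations. In bulk RNA, a change in the share of cells that express a gene and a change in RNA per cell cannot be told apart.

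Both transporters had low levels in MDA-MB468. ABCA1 was at 0.24 FPKM in vehicle, 0.74 and 1.31 with the doses of XY018, 0.06 with ATV and 0.72 with both compounds, on about 49, 150, 246, 12 and 145 fragments. Its highest level in that line, 1.31 FPKM, was thus below the vehicle level of HCC70. It reached 1 FPKM, the level required for a call, only with XY018 at 2.5 μM, where it passed through the treated library alone, and there its log2 ratio was 2.05, rank 69 of 11919. With 1 FPKM added in place of 0.1 the ratio was 0.90. With nothing added, its interval was 2.02 to 2.94.

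ABCG1 in MDA-MB468 was at 1.14 FPKM in vehicle, 4.21 and 5.77 with XY018, 0.37 with ATV and 2.34 with both compounds. The 5 libraries stood in the same order for both transporters, with the higher dose on top, then the lower dose, the combination, vehicle and ATV alone. The log2 ratios of ABCG1 were 1.80 and 2.24 with XY018, -1.40 with ATV and 0.98 with both compounds. With ATV it was the 9th lowest ratio of 11710 genes tested, on about 22 fragments against 66 in vehicle, with an interval of -2.35 to -0.87.

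**Figure D2:**
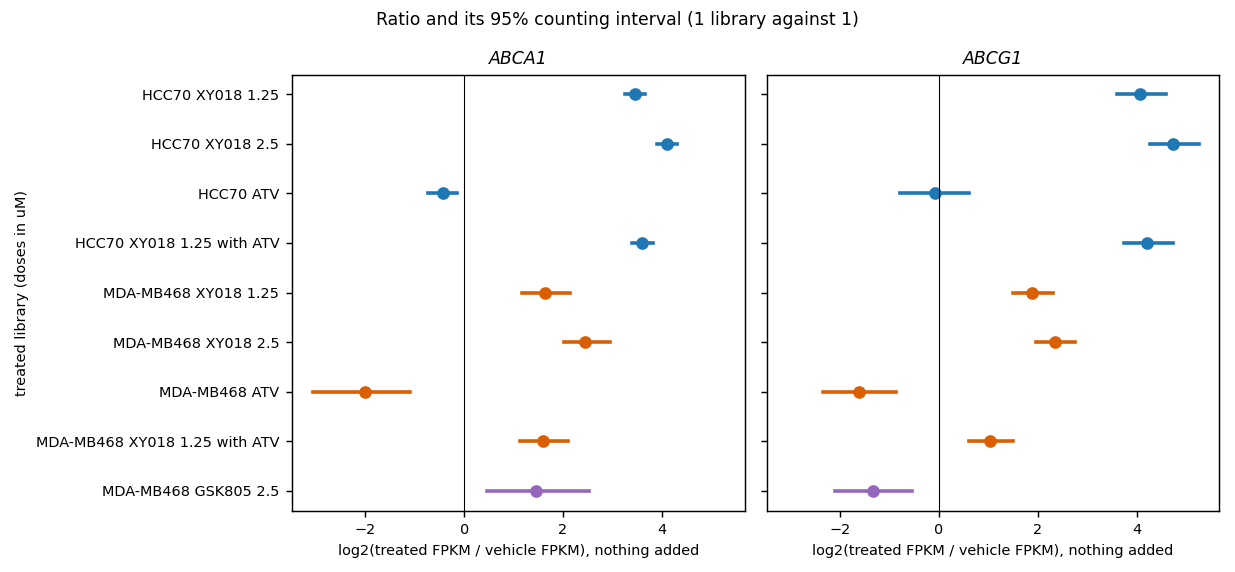
Treated over vehicle FPKM on the log2 scale with nothing added (points) and its 95% counting interval (bars) for ABCA1 and ABCG1 in the 9 treated libraries, colored by table. With XY018 the ratios lay above 3 in HCC70 and were lower in MDA-MB468, and with GSK805 the interval of ABCA1 was above 0 (0.46 to 2.53) and that of ABCG1 below 0 (-2.11 to -0.54).

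Between the 2 doses of XY018 the transporters differed by more than counting error. From 1.25 to 2.5 μM, ABCA1 in HCC70 went from 24.3 to 38.3 FPKM, a log2 difference of 0.65 with an interval of 0.58 to 0.73, and ABCG1 had a difference of 0.67 (0.52 to 0.82). In MDA-MB468 the differences were 0.75 (0.52 to 1.12) for ABCA1 and 0.45 (0.20 to 0.70) for ABCG1. NR1H2 differed between the doses by 0.13 in each line, with intervals above 0. For NR1H3, MYLIP, LPCAT3, APOE and SMPDL3A the intervals of the dose difference held 0 in both lines where they could be given, which does not show equal levels.

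The addition of ATV to XY018 at 1.25 μM gave different values in the 2 lines. In HCC70, ABCA1 differed between both compounds and XY018 alone by 0.15 on the log2 scale (0.07 to 0.23) and ABCG1 by 0.14 (-0.02 to 0.30). In MDA-MB468 the difference was -0.03 (-0.39 to 0.29) for ABCA1 and -0.82 (-1.16 to -0.54) for ABCG1, which went from 4.21 FPKM with XY018 to 2.34 FPKM with both. Against ATV alone, both compounds together gave higher ABCA1 and ABCG1 in each line, with log2 differences of 3.95 and 4.20 in HCC70 and of 2.36 and 2.38 in MDA-MB468. The difference between the lines was not tested.

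The transporters were also compared with each other. Per length, ABCA1 was 1.66 times ABCG1 in HCC70 vehicle and 1.07 to 1.09 times ABCG1 in the HCC70 libraries with XY018. In MDA-MB468 the ratio of ABCA1 to ABCG1 was 0.211 in vehicle, 0.176 and 0.227 with XY018, 0.162 with ATV and 0.308 with both compounds. It was 0.0643 in the vehicle and 0.443 in the treated library of the GSK805 experiment, on about 12 and 34 fragments of ABCA1.

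MYLIP, also called IDOL, encodes a ubiquitin ligase that sends lipoprotein receptors to degradation (chromosome 6, 16129317 to 16148479). In HCC70 it was at 8.36 FPKM in vehicle, 12.5 and 12.1 with the doses of XY018, 5.81 with ATV and 13.6 with both. The libraries with XY018 were above vehicle and ATV below it, an order that was not counted over all genes. Only both compounds together passed 1.5-fold, with a log2 ratio of 0.70 against 0.57 and 0.53 with XY018 alone. With ATV the log2 ratio was -0.52. In MDA-MB468 MYLIP was at 9.5 FPKM in vehicle, 9.6 and 9.95 with XY018, 4.84 with ATV and 5.82 with both. Here XY018 alone gave log2 ratios of 0.01 and 0.07, and MYLIP fell with ATV by 0.96, the 16th lowest of 11710 ratios, and with both compounds by 0.70. The difference between both compounds and XY018 alone was -0.71 (-0.92 to -0.52) in MDA-MB468 and 0.12 (-0.09 to 0.33) in HCC70.

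LRP8 encodes a lipoprotein receptor that MYLIP targets. Its transcript was lower by 1.5-fold in all 4 MDA-MB468 libraries with an antagonist, with the largest fall with GSK805, from 27.9 to 7.32 FPKM. Of all genes, 8.38% and 14.5% were lower with the doses of XY018, 12.2% with both compounds and 16.6% with GSK805. MYLIP acts on the receptor protein, and a link to the LRP8 transcript was not tested. Values of VLDLR, another such receptor, are given at the end.

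LPCAT3 encodes the lysophospholipid acyltransferase that places polyunsaturated chains in membrane phosphatidylcholine (chromosome 12, 7085347 to 7125781, minus strand). It was at 33.5 FPKM in HCC70 vehicle, 47.6 and 47 with XY018, 37.1 with ATV and 48.6 with both. In MDA-MB468 it was at 17.3 FPKM in vehicle, 15.5 and 15.2 with XY018, 18 with ATV and 13 with both, and at 24.5 and 17.7 FPKM in the vehicle and GSK805 libraries. The HCC70 libraries with XY018 were above vehicle by log2 ratios of 0.49 to 0.54 and those of MDA-MB468 below it, at -0.16, -0.19 and -0.41, all within 1.5-fold. The log2 ratio with GSK805 was -0.47. Of the 6 other acyltransferase genes listed, 0 passed 1.5-fold in any HCC70 comparison, where 1.32% to 4.38% of all genes were called in a given direction. In MDA-MB468, 1 was higher and 1 lower with XY018 at 2.5 μM, against 14.1% and 14.5%. With the lower dose and with both compounds 0 were higher and 1 lower, against 8.38% and 12.2% of all genes lower. The counts were 0 and 0 with ATV, against 1.37% and 0.803%, and 0 and 2 with GSK805, against 17.6% and 16.6%. LPCAT2, which acylates lysophosphatidylcholine and makes platelet-activating factor, had the largest ratio of that list, from 14.2 to 7.86 FPKM with XY018 at 2.5 μM in MDA-MB468.

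APOE, which encodes the lipoprotein ligand apolipoprotein E (chromosome 19, 45409048 to 45412650), was seen in MDA-MB468 and hardly at all in HCC70. In HCC70 it was listed at 0 in vehicle, which at the estimated depth allows a level of up to 0.269 FPKM (3 fragments), and at 0.1, 0.25, 0.18 and 0.09 FPKM in the treated libraries, on 1 to 3 fragments, so a difference was not detectable at this depth. In MDA-MB468 it was at 4.25 FPKM in vehicle, 6.21 and 7.6 with XY018, 4.84 with ATV and 7.3 with both compounds. It rose past 1.5-fold with XY018 at 2.5 μM (log2 ratio 0.82, interval 0.46 to 1.23) and with both compounds (0.77, interval 0.40 to 1.16), and had a log2 ratio of 0.54 with the lower dose of XY018. With GSK805 it was at 6.78 FPKM against 5.72 in vehicle.

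SMPDL3A encodes a secreted phosphodiesterase of the acid sphingomyelinase family (chromosome 6, 123110194 to 123130865). It had the opposite distribution, at 0.95 to 1.23 FPKM in HCC70 on 15 to 21 fragments, and it was listed at 0 in 4 of the 5 libraries of the first MDA-MB468 experiment, with 0.03 FPKM in the other. In the GSK805 experiment it was at 0 in vehicle and 0.09 FPKM with GSK805. A count of 0 allows up to 0.0877 FPKM in the deeper MDA-MB468 vehicle and up to 0.229 FPKM in the other. In HCC70 it was at 0.96 FPKM in vehicle, 0.95 and 0.99 with XY018, 1.23 with ATV and 1.1 with both compounds, and every interval of its ratio held 0.

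**Figure D3:**
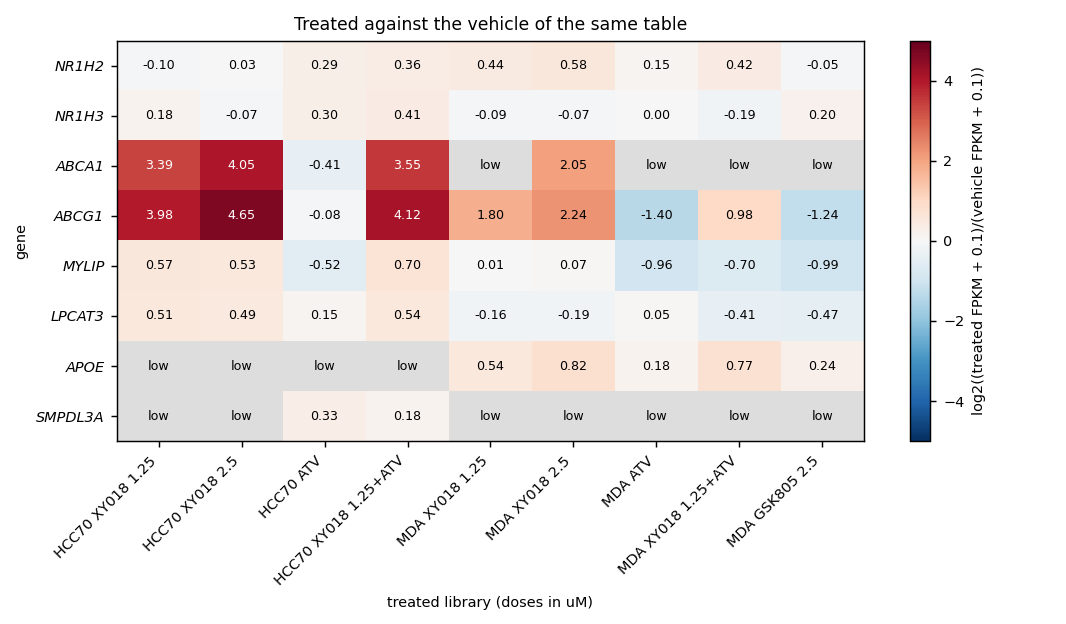
Log2 ratio of each of the 8 genes (rows) in each treated library (columns) to the vehicle of the same table, with 0.1 FPKM added; red is above and blue below vehicle, and grey cells marked low were under 1 FPKM in both libraries. The deepest red cells are ABCA1 and ABCG1 in HCC70 with XY018, and the deepest blue cells are ABCG1 with ATV (-1.40) and GSK805 (-1.24) in MDA-MB468.

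Read as a list, the 8 genes gave few calls at 1.5-fold, and the counts below follow from how the genes were selected. With XY018 at 1.25 μM in HCC70, 6 of the 8 genes were at 1 FPKM or above in a compared library, 2 were higher and 0 lower, where 1.93% of all 11738 genes tested were higher and 2.64% lower. At 2.5 μM the members gave 2 higher and 0 lower of 6, against 2.62% and 3.26% of all genes. The higher genes were ABCA1 and ABCG1 in each case, and the median log2 ratio was 0.54 and 0.51, over the members that passed and over all 8, beside -0.01 and -0.02 over all genes. With ATV in HCC70, 7 genes passed the filter and 0 were called in either direction, against 2.22% higher and 1.32% lower, and the median was 0.15 over those that passed and 0.22 over all 8. With both compounds 3 of 7 were higher (ABCA1, ABCG1 and MYLIP) and 0 lower, against 4.38% and 2.93%, with medians of 0.54 and 0.62. SMPDL3A passed in these last 2 comparisons through the treated library alone.

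In MDA-MB468 a larger share of all genes was past 1.5-fold with XY018, alone or with ATV, and a smaller share with ATV alone. With XY018 at 1.25 μM, 1 of 6 genes was higher (ABCG1) and 0 lower, against 9.73% and 8.38% of all genes. With 2.5 μM, 3 of 7 were higher (ABCA1, ABCG1 and APOE) and 0 lower, against 14.1% and 14.5%, where ABCA1 passed through the treated library alone. The medians of the members that passed were 0.23 and 0.58, while those of all 8 were 0.41 and 0.32, so the order of the doses turned with the members counted. Over all genes the medians were 0.01 and 0.00. With ATV, 0 of 6 were higher and 2 lower (ABCG1 and MYLIP), against 1.37% and 0.803%, with medians of 0.03 over those that passed and 0.00 over all 8. With both compounds, 2 of 6 were higher (ABCG1 and APOE) and 1 lower (MYLIP), against 13.1% and 12.2%, with medians of 0.12 and 0.21. With GSK805, 0 of 6 were higher and 2 lower (ABCG1 and MYLIP), against 17.6% and 16.6%. These shares are of 19951 genes tested out of 55744 symbols, a larger gene set than the 11710 to 11919 genes tested elsewhere. They are therefore not comparable with the shares for XY018 and ATV. The median was -0.26 over the 6 that passed and 0.08 over all 8, so its sign turned. Of all genes past 1.5-fold with GSK805, 51.6% were higher, or 40.3% after each library was rescaled to the same sum. The called values nearest to the threshold were those of MYLIP with both compounds, at 0.70 in HCC70 and -0.70 in MDA-MB468, and of APOE at 0.77. The nearest that were not called were NR1H2 at 0.58 with XY018 at 2.5 μM in MDA-MB468, MYLIP at 0.57 with 1.25 μM in HCC70, and LPCAT3 at 0.54 with both compounds in HCC70.

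**Figure D4:**
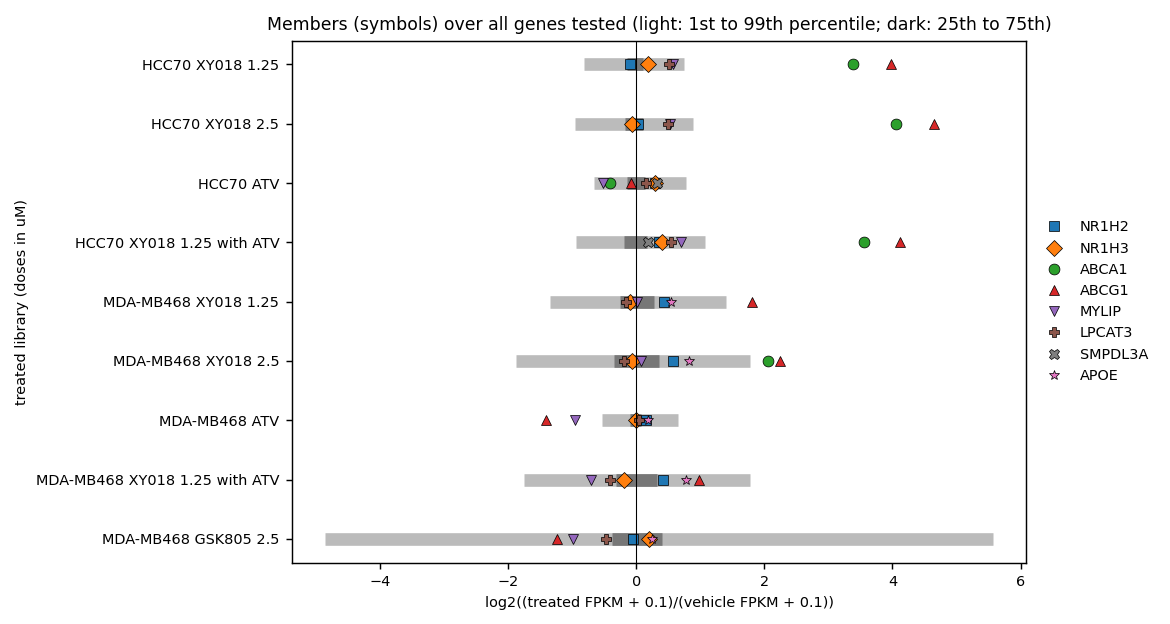
Log2 ratio to vehicle (0.1 added) of the members that passed 1 FPKM (symbols) in each treated library, over the 1st to 99th percentile (light bar) and the 25th to 75th percentile (dark bar) of all genes tested. ABCA1 and ABCG1 lay far to the right of the light bar in the 3 HCC70 libraries with XY018, whose 99th percentiles were 0.75, 0.89 and 1.07, and the light bar of the GSK805 comparison was the widest, from -4.85 to 5.57. That bar covers 19951 genes, and the others 11710 to 11919, so its width is not comparable with theirs.

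XY018 and GSK805 could be compared at a matched dose of 2.5 μM and time of 24 h in MDA-MB468, although from separate experiments with their own vehicles. The experiments also differed in composition. The top 10 genes held 46.5% and 50.1% of the summed FPKM in the vehicle and GSK805 libraries, against 6.72% and 10.6% in the vehicle and XY018 libraries. The ABCG1 values with GSK805 and its vehicle rest on about 21 and 50 fragments. ABCG1 rose with XY018 from 1.14 to 5.77 FPKM and fell with GSK805 from 2.16 to 0.857 FPKM, with log2 ratios of 2.24 and -1.24 whose counting intervals lay on opposite sides of 0. ABCA1 had log2 ratios of 2.05 and 1.01, the latter from 0.139 to 0.379 FPKM and under the 1 FPKM required for a call. MYLIP had 0.07 with XY018 and fell by 0.99 with GSK805, from 13.2 to 6.6 FPKM. LPCAT3 was at -0.19 and -0.47, APOE at 0.82 and 0.24, NR1H2 at 0.58 and -0.05, and NR1H3 at -0.07 and 0.20. With 1 library each, none of these differences was tested.

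The direction for ABCG1 and MYLIP did not turn when GSK805 was set against the vehicle of the XY018 experiment, but the size did. The log2 ratios became -0.37 for ABCG1 and -0.52 for MYLIP, so neither was then past 1.5-fold. Against that vehicle LPCAT3 was at 0.03 and NR1H2 at 0.37, and NR1H3 and APOE were past 1.5-fold higher, NR1H3 with a log2 ratio of 1.14. The vehicle of the GSK805 experiment was itself higher than the other, by a median log2 ratio of 0.56 over 11952 genes. For single genes it was higher by 0.86 (ABCG1), 0.47 (MYLIP), 0.93 (NR1H3) and 0.42 (APOE). The ratios against the other vehicle were not corrected for this offset.

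Other LXR targets were counted from a list of 19 genes. In HCC70, 7 passed the filter, of which 1 was higher and 1 lower with XY018 at 1.25 μM, against 1.93% and 2.64% of all genes. With 2.5 μM, 2 were higher and 1 lower, against 2.62% and 3.26%, and with both compounds 2 and 0, against 4.38% and 2.93%. With ATV the counts were 0 and 0, against 2.22% and 1.32%. SREBF1, whose product SREBP1 drives fatty acid synthesis, was among the higher, at 37.4 FPKM in vehicle, 64.9 and 69.9 with XY018, 41.9 with ATV and 87.6 with both. In MDA-MB468 SREBF1 was at 41.4 FPKM in vehicle, 37 and 40.5 with XY018, 28.9 with ATV and 21.9 with both compounds. With both compounds together it rose in HCC70 by a log2 ratio of 1.23 and fell in MDA-MB468 by 0.92, and with GSK805 it fell by 2.04, from 188 to 45.5 FPKM.

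In MDA-MB468 the list of 19 gave 1 higher and 1 lower of 6 with XY018 at 1.25 μM, against 9.73% and 8.38% of all genes, and 2 and 2 of 8 at 2.5 μM, against 14.1% and 14.5%. With ATV it gave 2 higher and 0 lower of 7, against 1.37% and 0.803%. With both compounds 2 were higher and 4 lower of 8, against 13.1% and 12.2%, and with GSK805 0 and 4 of 7, against 17.6% and 16.6%. Some of the higher genes passed the filter through the treated library alone. These were MLXIPL with ATV (0.9 to 1.5 FPKM), and MERTK with XY018 at 2.5 μM (0.46 to 1.45 FPKM) and with both compounds (1.55 FPKM). The median log2 ratio of the genes that passed was 0.35 for the higher dose of XY018 in HCC70, -0.24 for the same dose in MDA-MB468, 0.33 with ATV and -1.28 with GSK805 there. Over every listed gene in the table these medians were 0.21, 0.00, 0.14 and 0.00. SCD, the stearoyl-CoA desaturase, had the largest ratio of the list, from 259 to 33.4 FPKM with GSK805. SCD is also a target of SREBP1, as are several genes of the list.

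Genes that make or clear oxysterols, the ligands of LXR, were counted from a list of 7. In HCC70, 4 passed the filter, and 0 were higher and 1 lower with each dose of XY018, against 2.64% and 3.26% of all genes lower. In MDA-MB468, 3 passed in the XY018 experiment, with 1 higher and 0 lower at 1.25 μM, against 9.73% and 8.38%, and 1 and 1 at 2.5 μM, against 14.1% and 14.5%. With GSK805, 2 of 4 were higher and 1 lower, against 17.6% and 16.6%. So few genes passed that these shares say little. CYP11A1, the side-chain cleavage enzyme, had the largest ratio of the list, from 0.183 to 2.07 FPKM with GSK805, where it passed through the treated library alone.

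Macrophages use ABCA1 and ABCG1 heavily, so their markers were read in the same libraries. Of 5 markers 2 to 3 were at 1 FPKM or above in each library. Their summed level was 248 FPKM in HCC70 vehicle, 255 with ATV, and 401, 511 and 481 FPKM with the lower dose of XY018, the higher dose and the combination. CD14 made up most of it, with 170 FPKM in vehicle and 419 with XY018 at 2.5 μM, and CD163 was not listed. PTPRC, which all leukocytes carry, was between 0.15 and 0.63 FPKM, with 0.22 in vehicle and its highest value at 2.5 μM. CSF1R was at 0.8 FPKM in vehicle, 0.57 and 0.91 with the doses of XY018, 0.64 with ATV and 1.36 with both compounds. In MDA-MB468 the summed level was between 20.8 and 25.6 FPKM in the XY018 experiment, with CD163 listed at 0, but its members moved in opposite directions. With XY018 at 2.5 μM CD14 fell there from 17.9 to 7.33 FPKM, while CD68 rose from 4.42 to 16.4 FPKM, the largest ratio of the list. At that dose PTPRC went from 0.6 to 1.06 FPKM and CSF1R from 0.36 to 0.85 FPKM. With GSK805 the sum went from 101 to 65.2 FPKM, CD14 from 93.7 to 51.8, CD68 from 5.54 to 12.4 and CSF1R from 2.16 to 0.943. The part of these markers in the ratios of ABCA1 and ABCG1 was not tested. Of the hepatocyte markers 0 of 3 reached 1 FPKM in any library, and of the fibroblast markers 1 of 3 did, COL1A1.

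The pattern of ABCA1 and ABCG1 was compared with that of other genes over the 9 log2 ratios. These ratios share 3 vehicles and are not independent, so the correlations are descriptions without a p. ABCA1 and ABCG1 had a Pearson r of 0.932 with each other. Among 1656 genes at 1 FPKM or above in each table and with at least 1 ratio past a log2 of 1, those most like their mean included SPTLC2, a subunit of serine palmitoyltransferase (r of 0.961), AGFG2 (0.957), CDCA7L (0.938) and PRSS22 (0.877). Their ratios were smaller: with XY018 at 2.5 μM in HCC70 the ratios of these 4 genes ranged from 0.88 for PRSS22 to 1.04 for CDCA7L, and in MDA-MB468 from 0.08 for CDCA7L to 0.50 for SPTLC2. With ATV in HCC70 they lay between -0.25 and 0.37.

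**Figure D5:**
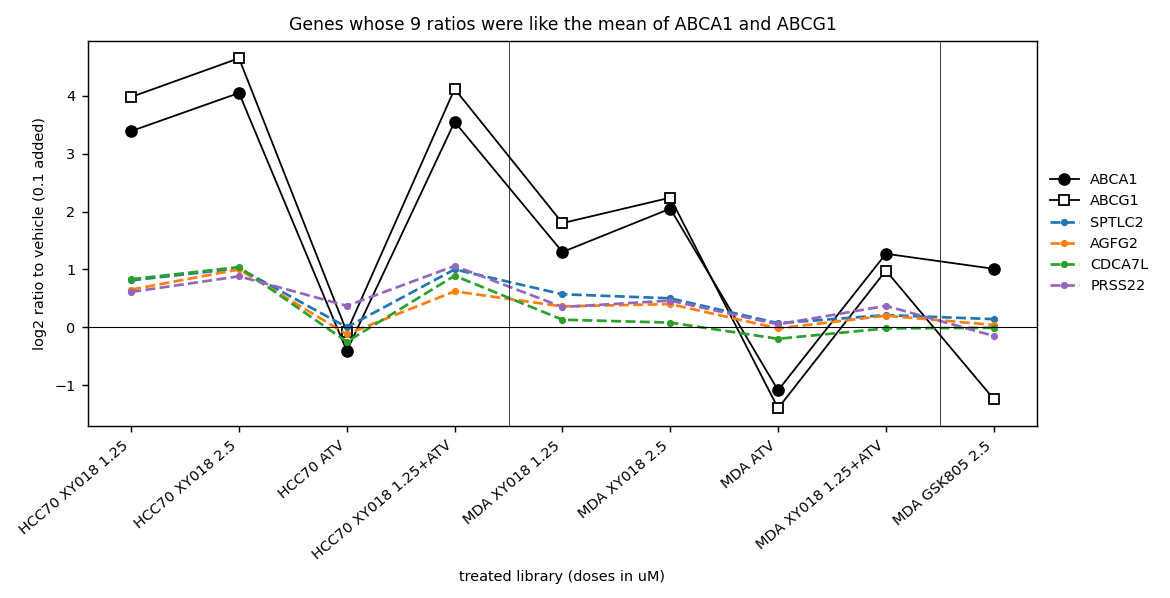
Log2 ratio to vehicle (0.1 added) in the 9 treated libraries for ABCA1 and ABCG1 (black) and 4 of the 5 genes with the most similar pattern (dashed); lines join libraries for reading only and vertical lines separate the tables. The 4 genes were picked for likeness over these same ratios, so their shared peak in HCC70 libraries with XY018 follows from the selection. ABCA1 and ABCG1 parted with GSK805, at 1.01 and -1.24.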

How the data were processed

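RNA was extracted from the treated cells, libraries were made with the Illumina TruSeq kit, and the submitters' processing notes name BWA, Bowtie and Cufflinks with GRCh37, while their versions are not given in the sources used here. The authors deposited FPKM values in 3 tables, each normalized on its own, with 1 column per library. The headers name no unit. Every column belonged to a sample of the series, so the columns left unused for that reason numbered 0.

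For each treated library the log2 ratio to the vehicle in the same table was computed with 0.1 FPKM added, over genes that reached 1 FPKM in either library, and genes past 1.5-fold were counted. Adding 0.1 understates the change of weakly expressed genes. Where a symbol was repeated, the entry with the highest mean was used. No test was run, since each condition has 1 library. Depth was estimated from the spacing of low FPKM values, by a method developed after such values had been seen, and fragments of a gene come from its FPKM, the length of its representative transcript and that depth, so they are approximate. Intervals are Clopper-Pearson at the 95% level. Both calculations were tested on simulated data. Repeated use of the same vehicle makes the ratios of a table dependent.

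The members and gene lists were chosen with earlier results of these data known. All 8 members were named in every library. Of each other list the gene with the most extreme ratio was named, with RXRA, RXRB and SREBF1, the markers of the cell types, the 5 genes most like ABCA1 and ABCG1, and the 5 largest ratios with XY018 at 2.5 μM in HCC70 among genes at 5 FPKM or above. The other genes named, among them VLDLR, CYP27A1 and CLU, were named after their values had been seen. Some genes that this rule names are not reported here. Gene positions come from GENCODE mapped to GRCh37, and promoter windows from RefSeq on GRCh38.p14. The alternatives were pseudocounts of 1 and 0.01, no filter, a filter at 5 FPKM, rescaling to a median log2 ratio of 0 or to an equal sum, a threshold of 2-fold, the other MDA-MB468 vehicle for GSK805, and the sum of repeated entries. Calculations used scipy 1.17.1, pandas 2.3.3 and numpy 2.4.6 under Python 3.11.15, and plots matplotlib 3.10.9.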

Additional observations from a re-analysis of the deposited data

Results flagged for a closer look

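LPCAT3 stood on opposite sides of vehicle in the 2 lines in every library with XY018. Its log2 ratios were 0.51 with the lower dose, 0.49 with the higher dose and 0.54 with XY018 and ATV in HCC70, and -0.16, -0.19 and -0.41 in MDA-MB468, and each counting interval lay on its own side of 0. All 6 ratios were within 1.5-fold, the 3 ratios of a line share 1 vehicle library, and the difference between the lines was not tested.

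ABCG1 moved in opposite directions with the 2 RORγ antagonists at 2.5 μM in MDA-MB468. Its log2 ratio was 2.24 with XY018 and -1.24 with GSK805, each against the vehicle of its own experiment, and -0.37 with GSK805 against the vehicle of the other experiment. The vehicles themselves differed for ABCG1 by a log2 ratio of 0.86, beside a median of 0.56 over all genes. The difference between the antagonists was not tested.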

How the results depend on the processing

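Of 146 recomputed counts of members past 1.5-fold, or past 2-fold in the setting with that threshold, 131 were within 1.5 times the reported count. A count that stayed at 0 or went from 2 to 3 was taken as within. With XY018 at 1.25 μM in HCC70, for example, 3 members were higher after rescaling to a median of 0 or to an equal sum, with MYLIP at 0.58 and 0.60. None of 394 recomputed log2 ratios turned the direction of a called member. No share of all genes is given beside the recomputed counts below. With no filter on low values, members higher numbered 1 with ATV in HCC70, 2 with XY018 at 1.25 μM in MDA-MB468 and 2 with GSK805. With a filter at 5 FPKM, 0 were higher with XY018 at 1.25 μM and 1 with both compounds in MDA-MB468, and 1 was lower with ATV and 1 with GSK805. After rescaling to an equal sum, 2 were higher with XY018 at 1.25 μM in MDA-MB468 and 1 was lower with GSK805, since ABCA1 then passed the filter and ABCG1 did not. At 2-fold, 1 was lower with ATV and 1 with GSK805 in MDA-MB468, and 0 were higher or lower with both compounds. Against the other vehicle, 2 were higher and 0 lower with GSK805. The 2 vehicles themselves differed by a median log2 ratio of 0.56, and 6597 of 11952 genes differed between them by 1.5-fold or more.

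A pseudocount of 1 lowered every called ratio of ABCA1 and ABCG1 with XY018. The largest relative change was that of ABCA1 at 2.5 μM in MDA-MB468, from 2.05 to 0.90, while at that dose in HCC70 ABCG1 went from 4.65 to 3.98 and ABCA1 from 4.05 to 3.61. It also brought ABCG1 with ATV in MDA-MB468 from -1.40 to -0.64. No paired analysis was possible because each condition has 1 library. Depth limits ABCA1 in MDA-MB468, APOE in HCC70 and SMPDL3A in both lines.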

Other observations

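Relatives of the members from the same gene families were counted in the same way. Of 12 other ABCA and ABCG transporter genes, 3 passed 1 FPKM in each HCC70 comparison and 0 of them was past 1.5-fold. There 1.32% to 4.38% of all genes were called in a given direction. In MDA-MB468, 6 passed, with 1 higher and 1 lower with XY018 at 2.5 μM, against 14.1% and 14.5% of all genes, and the largest ratio was that of ABCA4, the retinal transporter, from 1.09 to 0.51 FPKM. Of 10 other apolipoprotein genes, 1 or 2 passed in every comparison. In MDA-MB468, 1 of 2 was lower with each dose of XY018, against 8.38% and 14.5% of all genes, and 1 was higher and 1 lower with GSK805, against 17.6% and 16.6%. In HCC70, 1 of 2 was higher with ATV, against 2.22%. That gene was CLU, which encodes the apolipoprotein clusterin, at 0.8 FPKM in vehicle and 1.37 with ATV. It passed the filter there through the treated library alone. In MDA-MB468 CLU fell with XY018 from 41.6 to 21.1 and 19.7 FPKM and rose with GSK805 from 667 to 2068 FPKM. CLU is named here after its values had been seen. APOM had the most extreme ratio of the list, from 1.17 to 0.259 FPKM with GSK805, with a counting interval that held 0. Of 5 genes of the sphingomyelin phosphodiesterase family, 4 passed in every comparison. The largest ratio was that of SMPDL3B, the nearest relative of SMPDL3A, which fell with both compounds in MDA-MB468 from 20.9 to 8.61 FPKM, while SMPDL3A itself was listed at 0 there.

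The enzyme CYP27A1, which makes 27-hydroxycholesterol, was at 53.2 FPKM in MDA-MB468 vehicle, 92.1 and 100 with the doses of XY018, 68.5 with ATV and 111 with both compounds, and at 89.1 and 156 FPKM in the vehicle and GSK805 libraries. In HCC70 it was at 1.64 to 3.06 FPKM. VLDLR, a receptor that MYLIP targets, was at 11.8 FPKM in HCC70 vehicle, 16 and 21.3 with XY018, 12.8 with ATV and 19.9 with both, and at 7.06 FPKM in MDA-MB468 vehicle, 5.71 and 5.66 with XY018, 6.43 with ATV and 5.47 with both. Both were chosen after their values had been seen. HMGCS1, an early enzyme of cholesterol synthesis, fell with GSK805 from 138 to 20.5 FPKM.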
